A study of Mus musculus with 58 samples.

Results

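NF-κB transcription factors are dimers of 5 subunits, encoded by Rela, Relb, Rel, Nfkb1 and Nfkb2, and they are bound by IκB proteins. Of these, Nfkbia (IκBα), Nfkbib (IκBβ) and Nfkbie (IκBε) keep the dimers in the cytoplasm, while Nfkbiz (IκBζ) and Bcl3 act in the nucleus. All 5 IκB genes are called inhibitors here as a family name, which does not say that Nfkbiz and Bcl3 restrain NF-κB. These 10 genes were chosen by symbol, matched to the Ensembl identifiers of the count files, and all 10 were found among the 47643 identifiers listed. They were measured in 34 libraries of mouse microglia, the resident macrophages of the brain, out of 58 samples in the series. The other 24 samples, of cortex, were not analysed here. RNA was counted by QuantSeq, a 3′ tag method in which a transcript gives about 1 read near its end whatever its length, so CPM (counts scaled to the size of the library) of different genes can be set side by side without division by length, apart from differences in how well each 3′ end is captured.

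The libraries fell into 8 groups that form 4 comparisons. Wild-type primary microglia received 2 μg/ml of full-length tau fibrils for 24 h (tau fibrils, n = 4) or vehicle (n = 4). Adult microglia came from male PS19 mice (labelled P301S+, n = 4), whose neurons express a transgene for human P301S tau, all 10.98 months of age, and from male non-transgenic mice (NTG, n = 4), of which 2 were 10.98 and 2 were 11.18 months of age. IkbkbCA cultures (n = 5) came from Cx3cr1 CreERT2/+ mice carrying a constitutively active IKKβ behind a floxed stop in the Rosa26 locus, and IkbkbWT cultures (n = 5) from mice with the same insert and no Cre. Ikbkb-/- cultures (n = 4) came from Cx3cr1 CreERT2/+ mice with floxed Ikbkb alleles, and Ikbkb+/+ cultures (n = 4) from mice with the same floxed alleles and no Cre. Both Cre-carrying genotypes therefore also lacked 1 working Cx3cr1 allele, and by the study's methods the cultures of both genotypes and their controls received 4-hydroxytamoxifen. Cultured cells were shaken from mixed glial cultures of newborn pups, whereas adult cells were sorted on magnetic columns after enzymatic digestion of perfused brains, so levels in adult and cultured cells differ by method as well as by age. No label ties replicates to separate animals or litters. The p-values set each group difference against the spread between these samples, which may be technical in part. They need not extend to other animals or litters.

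In resting cells, dimers such as RELA with the p50 product of Nfkb1 sit bound to IκBα. The kinase IKKβ, encoded by Ikbkb, phosphorylates IκBα and so marks it for destruction, and the freed dimer enters the nucleus. In the alternative arm, RELB pairs with p52, the processed product of Nfkb2. Several IκB and subunit genes are themselves textbook targets of NF-κB, and newly made IκBα ends the response.

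The promoters of 7 of the 10 genes were listed in the RefSeq table used here (build GRCm38.p6, 300-base windows from 250 bases before to 50 bases after a gene's start). Relb, Nfkb1 and Nfkbiz were not matched. The windows are shown because these genes encode NF-κB or proteins that bind it, and the κB motif is the sequence that its dimers bind. The motif was searched by its 10-base consensus on both strands. It was present in 5 of the 7 genes, beside 9.55% of all 27025 genes listed. By windows it was present in 7 of 9 (Nfkb2 having 3), beside 8.46% of all 32851 windows. A match is a description of the letters and not a site shown to be bound. The 120 bases just before the start are given 5′ to 3′ on the gene's own strand, with motif matches in capitals:
Nfkbia (chr12:55492648-55492767, minus strand): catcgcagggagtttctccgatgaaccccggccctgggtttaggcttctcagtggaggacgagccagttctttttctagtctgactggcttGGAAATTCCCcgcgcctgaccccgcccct
Nfkb2, first window (chr19:46304617-46304736, plus strand): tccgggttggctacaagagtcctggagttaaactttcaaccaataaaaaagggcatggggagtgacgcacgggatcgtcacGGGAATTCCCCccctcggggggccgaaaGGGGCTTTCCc
Rel (chr11:23770970-23771089, minus strand): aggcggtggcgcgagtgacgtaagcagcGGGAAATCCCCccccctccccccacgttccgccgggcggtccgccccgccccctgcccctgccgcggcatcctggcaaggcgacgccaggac
Nfkbie (chr17:45555580-45555699, plus strand): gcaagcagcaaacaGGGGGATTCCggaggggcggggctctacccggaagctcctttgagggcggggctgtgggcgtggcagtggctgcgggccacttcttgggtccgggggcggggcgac
Rela (chr19:5637421-5637540, plus strand): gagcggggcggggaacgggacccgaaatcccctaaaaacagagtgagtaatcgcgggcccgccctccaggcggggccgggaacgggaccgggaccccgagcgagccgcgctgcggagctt
Nfkbib (chr7:28766645-28766764, minus strand): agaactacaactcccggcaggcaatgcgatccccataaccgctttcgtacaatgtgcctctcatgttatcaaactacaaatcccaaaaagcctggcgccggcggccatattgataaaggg

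The matches lay 29 bases before the start in Nfkbia, 39 and 11 bases before it in Nfkb2, 92 bases before it in Rel and 106 bases before it in Nfkbie. The second Nfkb2 window held GGAATGTCCC at 236 bases before its start and GGGACTTTCC from base 11 after it. The third window overlaps the second, and its only match, 225 bases before its start, is that same GGGACTTTCC, so this stretch is counted in both windows. In Bcl3 the only match, GGGAAGTCCC, began at base 3 after the start and so lay outside the stretch of this kind. Rela and Nfkbib had no match in their windows.

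By GENCODE M21 on GRCm38, Nfkbia lies on chromosome 12 (55489410-55492647, minus strand), Nfkb2 on chromosome 19 (46304320-46312385, plus strand), Relb and Bcl3 on chromosome 7 (19606217-19629438 and 19808462-19822770, both minus strand), Nfkbie on chromosome 17 (45555703-45563169, plus strand) and Nfkbiz on chromosome 16 (55811375-55838899, minus strand). Rela shares chromosome 19 with Nfkb2 and Nfkbib shares chromosome 7 with Relb and Bcl3, while Rel is on chromosome 11 and Nfkb1 on chromosome 3. All 10 are protein-coding genes.

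Libraries held 1672052 to 8349128 counts. All 10 microglial marker genes were detected in every group, and markers of T and B cells summed to at most 1.09 CPM in any library. Granulocyte markers summed to 413 to 2534 CPM in the adult libraries and to at most 7.41 CPM in the tau fibril experiment. Ikbkb itself was at 18.7 to 24.7 CPM in Ikbkb-/- and at 45.6 to 55.2 CPM in Ikbkb+/+ cultures. The log2 fold change was -1.205 (95% interval -1.45 to -0.96). Tags of Ikbkb thus remained in Ikbkb-/- cultures, and their source was not tested. In IkbkbCA the level of Ikbkb was 0.17 above IkbkbWT on the log2 scale (interval -0.09 to 0.42). There 3′ tags of the gene need not count the inserted transgene. Cx3cr1, the gene that the Cre allele disrupts, was lower in both Cre genotypes, by -1.16 in Ikbkb-/- and -0.56 in IkbkbCA. The labels give no sex for the cultures, yet the Y-linked Ddx3y was at 155 to 173 CPM in Ikbkb-/- and 35.1 to 69.4 CPM in Ikbkb+/+, with Xist at 5.65 to 10.4 against 243 to 400 CPM, so that pup sex and genotype cannot be told apart there. IkbkbWT replicates 4 and 5 had Xist at 469 and 485 CPM and replicates 1 to 3 at most 2.82 CPM. The PS19 library numbered 1, labelled male, had Xist at 177 CPM against at most 31.1 CPM in the other 7 adult libraries. Its Ddx3y was at 123 CPM, within the 101 to 223 CPM of those 7 libraries.

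**Figure D1:**
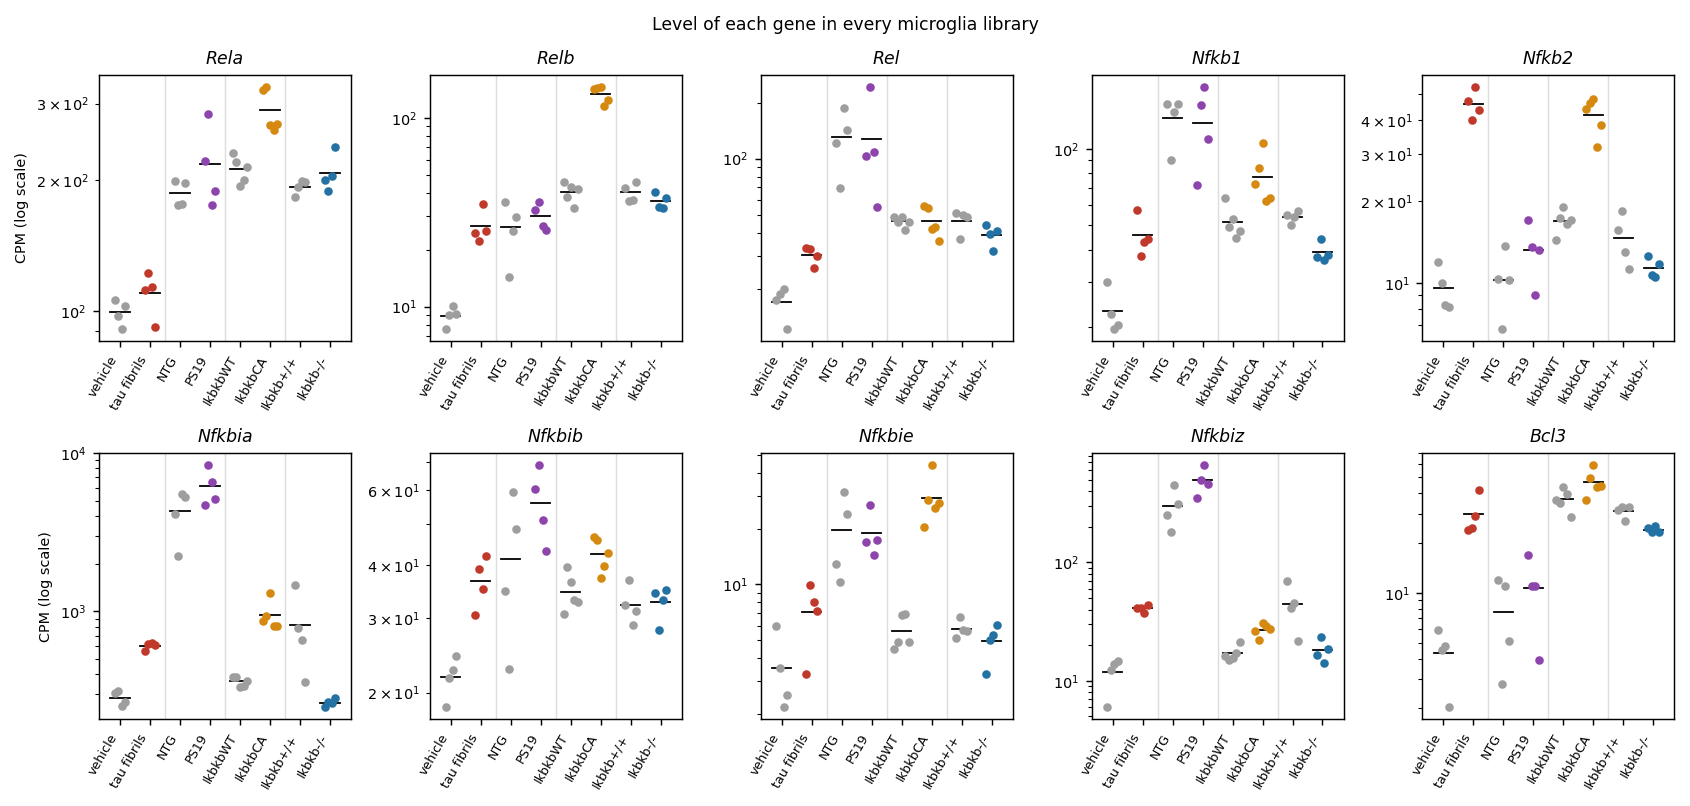
CPM of each of the 10 genes on a log axis in the 34 microglia libraries, by group, with a point per library and a black line at the group mean. Grey points are the controls of each pair. Nfkbia lies between 2244 and 8394 CPM in the adult libraries and between 248 and 1465 CPM in the cultured ones, and Nfkb2 is at 40.0 to 53.1 CPM with tau fibrils against 8.12 to 12.0 CPM with vehicle.

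Across the 8 groups, the inhibitor Nfkbia was the most abundant of the 10 genes, from a mean of 265 ± 15.2 CPM (SD, n = 4) in Ikbkb-/- cultures to 6169 ± 1681 CPM (n = 4) in PS19 microglia. The RELA subunit gene ran from 99.3 ± 6.48 CPM with vehicle to 290 ± 32.2 CPM in IkbkbCA, and neighbouring groups in this order overlapped at each step except between NTG and tau fibrils. Nfkbiz ran from 11.8 ± 3.97 CPM with vehicle to 494 ± 132 CPM in PS19. Rel was at 130 ± 48.3 CPM in NTG and 127 ± 80.8 CPM in PS19, the cultured groups having means of 46.5 CPM or less, though its lowest PS19 library, at 55.3 CPM, was below the highest IkbkbCA library. Nfkb2 had its highest means in tau fibril cultures (45.8 ± 5.59 CPM) and IkbkbCA cultures (41.6 ± 6.57 CPM), which overlapped each other, and with adult means of 10.3 ± 2.82 and 13.2 ± 3.27 CPM. Relb was highest in IkbkbCA at 134 ± 13.4 CPM, with no library of another group above 45.8 CPM. Bcl3 was highest in IkbkbCA (46.6 ± 8.46 CPM), overlapping IkbkbWT, and lowest with vehicle (4.33 ± 1.66 CPM). Summed over 15 immediate early genes, a list of quickly induced genes such as Fos and Egr1 that was drawn up after the values were seen, the adult libraries stood at 5813 to 16640 CPM and the cultured ones at 895 to 4209 CPM. Its part in the high adult levels of Nfkbia and Nfkbiz was not tested, and experiments and cell sources cannot be told apart in these levels.

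Most of the family was higher with tau fibrils. Of the 10 genes, 8 were higher at a false discovery rate (FDR) under 0.05 in edgeR's quasi-likelihood test and none was lower, beside 29.9% of the 10408 genes tested that were called in either direction and 14.5% called higher. For 8 of the 10 the tau fibril and vehicle libraries did not overlap, beside 28.2% of all genes. The median log2 fold change of the 10 was 1.11, against -0.01 over all genes tested. The alternative-arm subunits and the nuclear IκB genes led, while Rela did not pass the test.

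Among the subunits, Nfkb2 was at 46.9, 40.0, 53.1 and 43.4 CPM with tau fibrils and at 12.0, 10.0, 8.28 and 8.12 CPM with vehicle. Every treated library was thus above every control. The log2 fold change was 2.30 (95% interval 1.86 to 2.73, FDR 1.63e-09). Exons of Nfkb2 overlap those of Psd and of the lncRNA gene AC114539.1 on the opposite strand, and whether counting used strand is not given in the sources used here, so some of its reads could belong to those genes. Relb, its partner, was at 24.5, 22.2, 35.1 and 25.1 CPM against 7.61, 9.06, 10.0 and 9.14 CPM. These groups also did not overlap, with a log2 fold change of 1.62 (1.12 to 2.11, FDR 7.7e-06). Nfkb1, the precursor of p50, was at 37.9 to 57.3 CPM against 19.6 to 29.9 CPM and rose by 1.03 on the log2 scale (0.63 to 1.44, FDR 0.000205). Rel was at 25.98 to 33.3 CPM against 12.2 to 20.0 CPM and rose by 0.86 (0.42 to 1.29, FDR 0.00268). Rela, the main activating subunit of the classical arm, was at 112, 122, 113 and 92.1 CPM with fibrils and at 106, 97.6, 91.1 and 103 CPM with vehicle. Its groups overlapped, and its log2 fold change of 0.19 (-0.08 to 0.47, FDR 0.303) did not pass the test.

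Among the inhibitors, the nuclear Bcl3, which binds p50 and p52 dimers on DNA, had the highest fold change of the 10. It was at 24.0, 24.7, 29.3 and 42.0 CPM with tau fibrils and at 5.98, 4.53, 4.79 and 2.03 CPM with vehicle, the control values resting on 4 to 23 counts per library. The log2 fold change was 2.82 (2.21 to 3.42, FDR 1.95e-08), and an antisense gene overlaps Bcl3 exons. Nfkbiz was at 41.4, 41.6, 37.7 and 43.4 CPM against 5.98, 12.4, 13.9 and 14.7 CPM. It rose by 1.82 (1.36 to 2.28, FDR 3.78e-07), with the treated libraries within a 1.15-fold range. Nfkbia was at 560, 618, 634 and 611 CPM against 304, 315, 253 and 268 CPM, and rose by 1.13 (0.88 to 1.38, FDR 3.56e-08). Nfkbib, of which exons overlap Sirt2 and Ccer2 on the opposite strand, rose by 0.80 (0.40 to 1.19, FDR 0.0023), from 18.5 to 24.4 CPM in the controls to 30.5 to 42.0 CPM. Nfkbie was the least abundant, at 3.27 to 9.89 CPM against 2.18 to 5.98 CPM, on 5 to 24 counts per library. Its groups overlapped and its log2 fold change of 1.08 (0.23 to 1.94) missed the threshold at FDR 0.0506.

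In the same libraries the 10 microglial markers summed to 11550 to 13410 CPM with tau fibrils and 4989 to 6603 CPM with vehicle, with 7 of the 10 higher, while 3 of 6 astrocyte markers and 4 of 6 neuron markers were lower. The part of this shift in the rise of the family was not tested, and in bulk RNA a change in the number of cells of a type and in RNA per cell cannot be told apart.

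**Figure D2:**
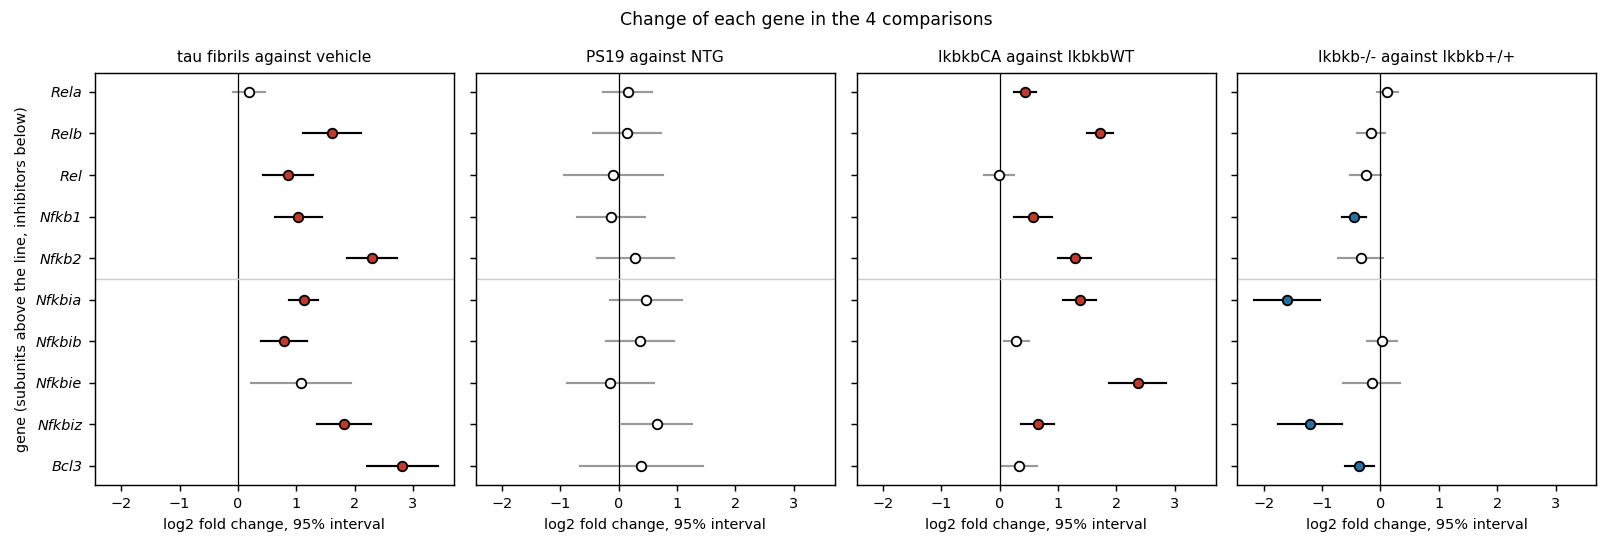
Log2 fold change of each gene in the 4 comparisons, with 95% intervals as lines. Red circles were higher and blue circles lower at an FDR under 0.05, and open circles were not called. Bcl3 leads with tau fibrils at 2.82 and Nfkbie in IkbkbCA at 2.37, no circle is filled for PS19, and Nfkbia at -1.605 is the lowest in Ikbkb-/-.

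In adult microglia of PS19 mice none of the 10 genes was called against NTG, where 0.0707% of the 11323 genes tested passed. At an unadjusted p under 0.05, 977 genes passed, among them Nfkbiz of the 10. DESeq2 and limma-voom also called none of the 10. The log2 fold changes ran from -0.15 (Nfkbie) to 0.66 (Nfkbiz), with a median of 0.22 against 0.00 over all genes. Groups overlapped for all 10, whereas they did not overlap for 6.2% of all genes.

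Nfkbiz was at 350, 499, 667 and 459 CPM in PS19 and at 254, 180, 454 and 313 CPM in NTG, so that 3 of the 4 PS19 libraries stood above every NTG library. Its log2 fold change was 0.66 (95% interval 0.06 to 1.25, FDR 0.526), and an exact two-sided permutation test of log2 CPM gave p = 0.0571, where 0.0286 is the smallest p that 4 against 4 allows. Nfkbia was at 4677, 8394, 6520 and 5085 CPM against 4105, 2244, 5526 and 5245 CPM, a log2 fold change of 0.47 (-0.15 to 1.09, FDR 0.682). The lowest of these libraries, NTG replicate 2, also had the lowest immediate early sum, at 5813 CPM against 10490 to 16640 CPM in the other 7, and the part of this in the Nfkbia values was not tested. Rel spanned 55.3 to 243 CPM within PS19 alone, a 4.40-fold range, with a log2 fold change of -0.10 (-0.94 to 0.75, FDR 0.968). For Nfkb2 the log2 fold change was 0.28 (-0.37 to 0.94) and for Relb 0.14 (-0.43 to 0.72). Rela (0.15, -0.27 to 0.57) and Nfkb1 (-0.13, -0.71 to 0.45) complete the subunits. Of the inhibitors, Nfkbib was at 0.36 (-0.22 to 0.95), Nfkbie at -0.15 (-0.89 to 0.60) and Bcl3 at 0.39 (-0.67 to 1.44). Without PS19 replicate 1, labelled male and with high Xist beside Ddx3y in the range of the other adult libraries, none of the 10 genes was called either. In that library granulocyte markers summed to 413.5 CPM, against 936 to 2534 CPM in the other 7. Markers of border-associated macrophages, of the brain's vessels and meninges, summed to 758 CPM there, against 244 to 424 CPM. PS19 replicate 3, with the most Nfkbiz, had the highest granulocyte sum and the highest astrocyte sum, at 1965 CPM. No tested marker of these lists was called, and their part in the family's values was not tested.

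In IkbkbCA, where microglia carry an IKKβ that needs no upstream signal, 7 of the 10 genes were called higher and none lower, beside 14.5% of the 11697 genes tested that were called in either direction and 7.31% higher and 7.16% lower. Groups did not overlap for 6 of the 10, against 12.4% of all genes. The median log2 fold change of the 10 was 0.61, against -0.05 over all genes tested. Nfkbie and Relb led, Rela was among the genes called, and Rel, Nfkbib and Bcl3 did not pass.

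Nfkbie, the cytoplasmic inhibitor IκBε, was at 20.3, 28.5, 44.1, 25.7 and 27.4 CPM in IkbkbCA and at 4.49, 4.90, 6.80, 6.89 and 4.87 CPM in IkbkbWT. Every IkbkbCA library was above every control. Its log2 fold change was 2.37 (95% interval 1.88 to 2.86, FDR 3.67e-05). Nfkbia was at 874, 929, 1309, 803 and 812 CPM against 384, 386, 334, 339 and 364 CPM, with no overlap and a log2 fold change of 1.38 (1.09 to 1.66, FDR 3.67e-05). The nuclear Nfkbiz was at 22.3 to 30.8 CPM against 14.9 to 21.3 CPM and rose by 0.65 (0.36 to 0.94, FDR 0.00581). Bcl3, which had led the response to tau fibrils, was at 36.4 to 59.3 CPM against 28.9 to 43.9 CPM, a log2 fold change of 0.33 (0.02 to 0.64, FDR 0.149). Nfkbib was at 37.2 to 46.5 CPM against 30.7 to 39.6 CPM, with a log2 fold change of 0.29 (0.07 to 0.50, FDR 0.0752).

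Relb was at 142, 144, 146, 116 and 125 CPM in IkbkbCA and at 45.7, 38.0, 42.9, 33.3 and 41.9 CPM in IkbkbWT. It rose by 1.72 (1.501 to 1.95, FDR 1.83e-06), the narrowest interval among the genes that rose by more than 1 on the log2 scale. Nfkb2 was at 31.8 to 47.8 CPM against 14.5 to 19.1 CPM and rose by 1.285 (1.005 to 1.57, FDR 5.04e-05). Nfkb1 rose by 0.58 (0.25 to 0.90, FDR 0.022), but its groups overlapped, at 62.1 to 105 CPM against 44.8 to 64.3 CPM, and leaving out one library in turn gave an FDR of up to 0.0601, past the threshold without IkbkbWT replicate 2, 4 or 5 or IkbkbCA replicate 2. Rela was at 322, 328, 268, 261 and 270 CPM against 231, 220, 194, 200 and 214 CPM, every IkbkbCA library above every control, with a log2 fold change of 0.44 (0.25 to 0.63, FDR 0.00456). Rel was at 35.9 to 55.7 CPM against 41.5 to 48.8 CPM, with a log2 fold change of -0.01 (-0.26 to 0.25, FDR 0.983).

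The IkbkbCA library numbered 3 was the highest of its group for 7 genes (Relb, Nfkb1, Nfkb2, Nfkbia, Nfkbie, Nfkbiz and Bcl3), and its 26 target genes of NF-κB summed to 28370 CPM against 3007 to 3635 CPM in the other 4. Its granulocyte markers summed to 85.8 CPM against 17.1 to 33.0 CPM in the other 4, and all 5 IkbkbCA libraries were above the 5 IkbkbWT libraries, at 6.56 to 12.2 CPM. Of the 2 granulocyte markers tested, S100a8 was called higher, at 2.53 on the log2 scale (FDR 0.00383), and S100a9 was not, at 0.04 (FDR 0.959). The part of granulocyte RNA in the family's change was not tested. Without IkbkbCA replicate 3, 8 of the 10 genes were called, Nfkbib joining at 0.35 (FDR 0.0367). The log2 fold changes of Nfkbia and Nfkbie in that fit were 1.25 and 2.201. Markers of border-associated macrophages, which line the brain's vessels and meninges, summed to 481.5 to 1019 CPM in IkbkbCA and 1305 to 1720 CPM in IkbkbWT, with 3 of the 4 tested markers lower, and their part in the family's change was not tested. Oligodendrocyte markers summed to 375 to 1763 CPM in IkbkbCA and 307 to 4915 CPM in IkbkbWT, with none of the 6 tested called. Astrocyte markers summed to 48.5 to 63.9 against 23.6 to 169 CPM, with none of the 5 tested called. Microglial markers summed to 15760 to 24990 against 12740 to 17700 CPM, with 4 of 10 higher and 1 lower. The part of these lists was not tested. With the level of Ddx3y as a covariate, a fit chosen after the data were seen, 7 of the 10 genes were called.

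In Ikbkb-/- cultures 4 of the 10 genes were called lower and none higher, beside 14.6% of the 11242 genes tested that were called in either direction and 6.96% lower and 7.64% higher. Groups did not overlap for 3 of the 10, against 18% of all genes. The median log2 fold change of the 10 was -0.30, against 0.00 over all genes. The inhibitors Nfkbia and Nfkbiz fell most, and of the subunits only Nfkb1 was called.

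Nfkbia was at 248, 267, 262 and 285 CPM in Ikbkb-/- and at 1465, 785, 656 and 357 CPM in Ikbkb+/+ cultures. The Ikbkb-/- libraries lay within a 1.15-fold range and the controls within a 4.10-fold range, without overlap. The log2 fold change was -1.605 (95% interval -2.17 to -1.04, FDR 0.000385). Without Ikbkb+/+ replicate 1 it was -1.15 (FDR 0.000128). Nfkbiz was at 16.4, 23.5, 14.01 and 18.7 CPM against 69.4, 41.4, 45.7 and 21.8 CPM, with Ikbkb+/+ replicate 4 below 1 Ikbkb-/- library, and fell by 1.21 on the log2 scale (interval -1.76 to -0.66, FDR 0.00363). In both genes Ikbkb+/+ replicate 1 was the highest library of the 8 and Ikbkb+/+ replicate 4 the lowest control.

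The same Ikbkb+/+ libraries differed in other RNAs. For replicates 1 to 4 the granulocyte markers summed to 400, 93.1, 38.4 and 7.83 CPM and the immediate early genes to 4209, 3386, 3428 and 3150 CPM. In Ikbkb-/- the granulocyte sums were 8.06 to 12.1 CPM and the immediate early sums 2217 to 2327 CPM, with 12 of 15 immediate early genes called lower. The replicate with the most granulocyte RNA was thus also the one with the most Nfkbia, and the part of either list in the Nfkbia and Nfkbiz differences was not tested. Border-associated macrophage markers summed to 415 to 718 CPM in Ikbkb-/- and 1445 to 1699 CPM in Ikbkb+/+, with 4 of 4 tested markers lower, and their part was not tested either. Oligodendrocyte markers summed to 488 to 575 CPM in Ikbkb-/- and 268 to 377.5 CPM in Ikbkb+/+, without overlap, with 5 of 6 called higher. Of 4 astrocyte markers tested, Slc1a3 was called lower, at -2.19 on the log2 scale (FDR 0.00209), and the sums were 31.1 to 62.8 against 49.7 to 207 CPM. The part of these lists was not tested.

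**Figure D3:**
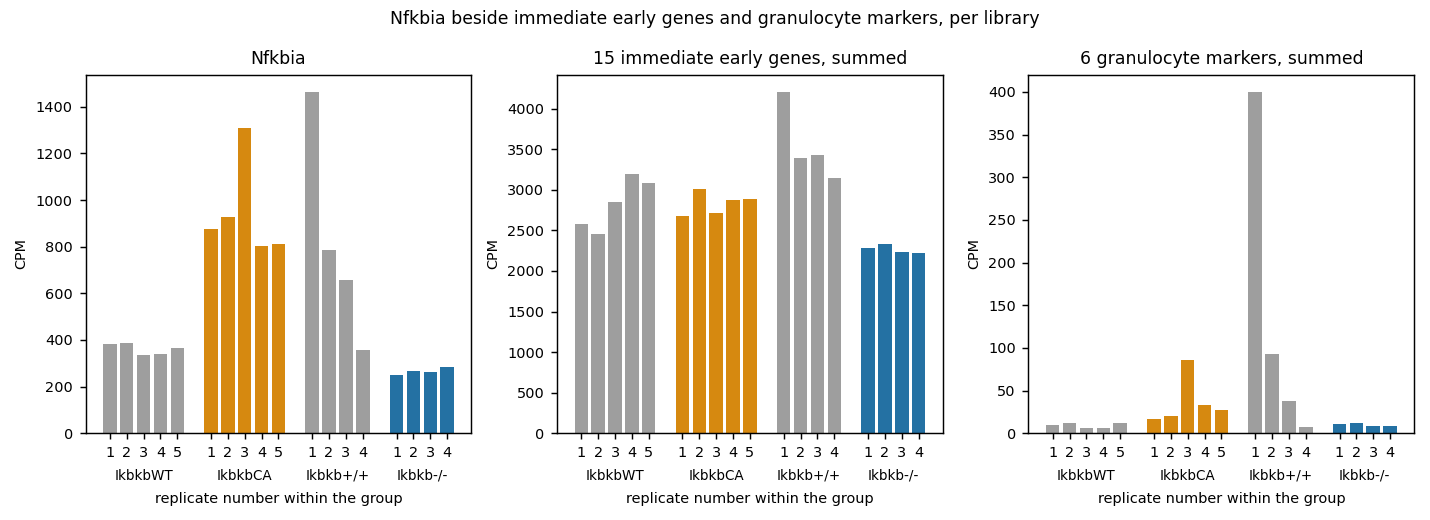
CPM per library, numbered within its group, of Nfkbia (left), of 15 immediate early genes summed (middle) and of 6 granulocyte markers summed (right) in the Ikbkb cultures. Nfkbia is 248 to 285 CPM in Ikbkb-/- and 357 to 1465 CPM in Ikbkb+/+, where replicate 1 is the highest bar of its group in all 3 panels.

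Nfkb1 was at 37.7, 44.2, 36.7 and 38.1 CPM in Ikbkb-/- and at 54.8, 50.2, 54.1 and 57.1 CPM in Ikbkb+/+, without overlap, and fell by 0.45 on the log2 scale (interval -0.66 to -0.24, FDR 0.00402). Bcl3 was at 23.2 to 25.2 CPM against 27.0 to 32.9 CPM, also without overlap, but its log2 fold change of -0.36 (-0.61 to -0.11) passed narrowly at FDR 0.0477. DESeq2, limma-voom and leaving out any library but Ikbkb+/+ replicate 3 put it past the threshold, with an FDR of up to 0.108. Nfkb2 (-0.34, interval -0.72 to 0.04), Rel (-0.25, -0.52 to 0.01), Relb (-0.16, -0.40 to 0.09) and Nfkbie (-0.15, -0.64 to 0.33) were not called, and neither were Rela (0.12, -0.05 to 0.29) and Nfkbib (0.03, -0.22 to 0.28). With the level of Ddx3y as a covariate, which was chosen after the data were seen and which separates these groups without overlap, 2 of the 10 genes were called, Nfkbia at -3.96 and Nfkbiz at -2.99. In one fit of the 18 Ikbkb libraries the same 2 were called, at -1.61 and -1.25.

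Whether a gene differed by different amounts in IkbkbCA and in Ikbkb-/- was tested as the difference of the 2 log2 fold changes in one fit of the 18 libraries, in which 3.12% of 12352 genes were called and 2.23% were called higher. The difference was called for 7 of the 10 genes. It was 3.004 for Nfkbia (95% interval 2.24 to 3.77, FDR 7.3e-05), the largest of the 10. It was 2.55 for Nfkbie (1.888 to 3.22) and 1.89 for Relb (1.56 to 2.21), both of which rose in IkbkbCA and did not pass in Ikbkb-/-. Nfkbiz (1.91), Nfkb2 (1.65) and Nfkb1 (1.04) followed, and Bcl3 (0.71, FDR 0.0479) was called narrowly and lost in 15 of the 18 fits that left out a library. Rela (0.34, 0.08 to 0.59), Rel (0.26, -0.13 to 0.65) and Nfkbib (0.27, -0.04 to 0.59) were not. Among the no-Cre controls, Nfkbia was at 357 to 1465 CPM in Ikbkb+/+ and 334 to 386 CPM in IkbkbWT. Nfkbiz was at 21.8 to 69.4 CPM and 14.9 to 21.3 CPM in these groups, and at 14.01 to 23.5 CPM in Ikbkb-/-. Relb was alike in both controls, at 36.4 to 45.8 and 33.3 to 45.7 CPM. In the Ikbkb-/- comparison genotype and pup sex cannot be told apart. The part of control levels and of sex in these differences was not tested.

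Relb, Nfkb1, Nfkb2, Nfkbia and Nfkbiz were called higher both with tau fibrils and in IkbkbCA. In one fit of those 4 groups, where the effect differed for 9.42% of 12841 genes and was higher with tau fibrils for 5.86%, 4 of the 10 genes rose more with tau fibrils. These were Bcl3 (a difference of 2.41 on the log2 scale, 95% interval 1.76 to 3.07, FDR 4.85e-05), Nfkbiz (1.10, 0.57 to 1.64), Nfkb2 (0.94, 0.48 to 1.39) and Rel (0.79, 0.34 to 1.24, FDR 0.0247), and the call of Rel was lost without tau fibrils replicate 2, at FDR 0.051. Nfkbie leaned the other way, at -1.36 (-2.30 to -0.42, FDR 0.0627), and was called by DESeq2. Relb (-0.18, -0.62 to 0.26), Nfkbia (-0.32, -0.68 to 0.04), Nfkb1 (0.38, -0.13 to 0.89), Rela (-0.33, -0.63 to -0.02) and Nfkbib (0.43, 0.06 to 0.81) were not called. The starting levels differed, since Bcl3 was at 36.7 ± 5.53 CPM in IkbkbWT (n = 5) and 4.33 ± 1.66 CPM with vehicle (n = 4), and the 2 experiments differ in culture and treatment, so that experiment and stimulus cannot be told apart.

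Against PS19, tau fibrils gave larger changes for Bcl3 (2.36, 95% interval 1.09 to 3.62, FDR 0.0172), Nfkb2 (1.93, 1.203 to 2.67, FDR 0.000898) and Relb (1.39, 0.64 to 2.13, FDR 0.0174), where the effect differed for 8.07% of 11852 genes and was higher with tau fibrils for 4.42% and lower for 3.65%. The other 7 genes were not called, among them Nfkb1 (1.07, FDR 0.0625) and Nfkbiz (1.08, FDR 0.0788). DESeq2 and a fit without a count filter called 5, those 2 included. Cell source, age, preparation and exposure to tau all differ between these experiments, so that experiment and stimulus cannot be told apart.

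**Figure D4:**
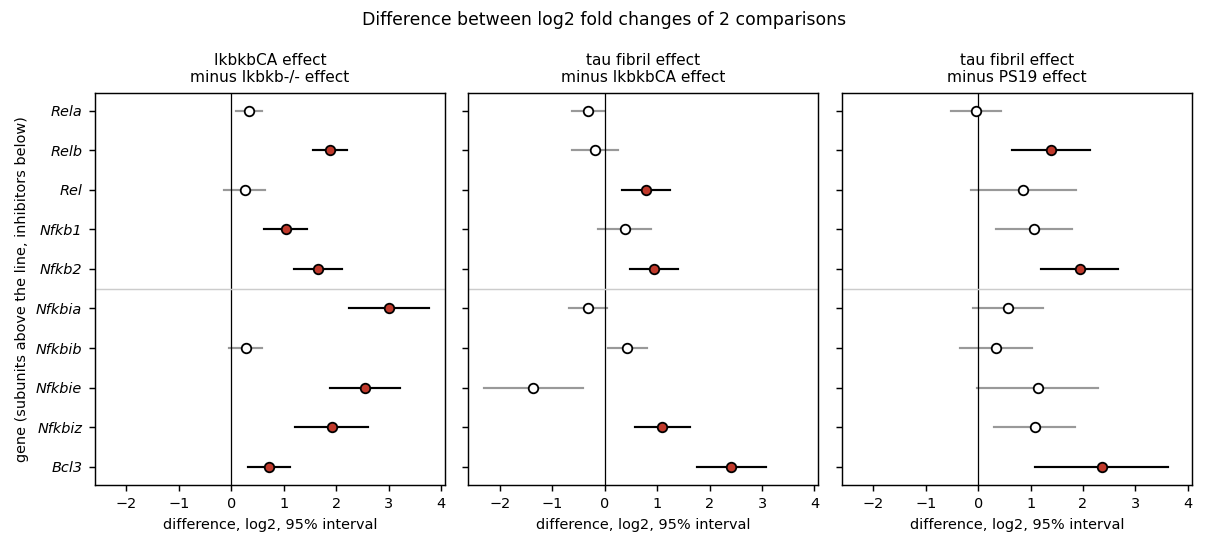
Difference between the log2 fold changes of 2 comparisons for each gene, with 95% intervals as lines. Red circles passed an FDR of 0.05 and open circles did not. Nfkbia at 3.004 has the largest difference between IkbkbCA and Ikbkb-/-, and Bcl3 the largest of tau fibrils against IkbkbCA, at 2.41. In the Ikbkb-/- comparison genotype and pup sex cannot be told apart.

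These changes altered the make-up of the family, given here as a description of each gene's share in the summed CPM of its class. Rela made up 62.9 ± 2.97% of subunit RNA with vehicle (SD, n = 4) and 42.5 ± 3.83% with tau fibrils (n = 4), and the 8 libraries did not overlap. Nfkb2 went from 6.04 ± 0.73% to 17.7 ± 1.70% in the same libraries. In IkbkbCA the share of Rela was 49.2 ± 2.91% against 57.8 ± 2.17% in IkbkbWT (n = 5 each), and there it was Relb that gained, at 22.8 ± 0.86% against 11.0 ± 0.87%. In Ikbkb-/- Rela was at 62.2 ± 2.95% and in Ikbkb+/+ at 55.4 ± 2.08% (n = 4 each). Adult microglia had a different mix, with Rela at 39.4 ± 7.02%, Nfkb1 at 27.1 ± 1.85% and Rel at 26.1 ± 6.31% in NTG.

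Among inhibitors Nfkbia held the largest share in every group. The ratio of Nfkbia to Rela CPM was 5.57 ± 0.76 with tau fibrils against 2.87 ± 0.26 with vehicle, and 3.30 ± 0.89 in IkbkbCA against 1.71 ± 0.04 in IkbkbWT. In Ikbkb-/- it was 1.28 ± 0.09, while in Ikbkb+/+ it ranged from 1.81 to 8.02 among 4 libraries. It reached 28.7 ± 6.66 in PS19 and 22.8 ± 7.99 in NTG.

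**Figure D5:**
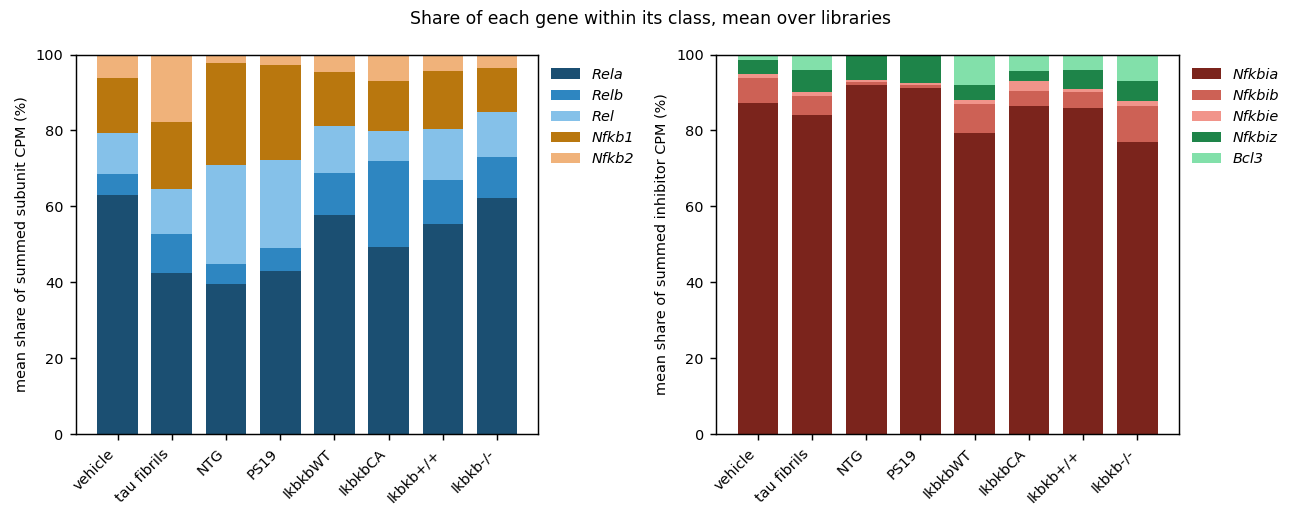
Mean share of each gene in the summed CPM of the 5 subunits (left) and of the 5 inhibitors (right), by group, in percent. Rela falls from 62.9% to 42.5% of subunit CPM between vehicle and tau fibrils, Relb is 22.8% in IkbkbCA, and Nfkbia is the largest part of inhibitor CPM in each group.

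Over the 34 libraries, with each gene centred within its experiment, the 2 members most alike were Relb and Nfkb2, with a Pearson r of 0.88 in log2 CPM, and the next pair was Nfkbia and Nfkbiz at 0.83. These are descriptions across libraries that share their group effects and depths. Among 9366 genes compared, those most like Nfkbia were Ccrl2 (0.87), Slamf8 (0.86), Cxcl2 (0.84), Nfkbiz (0.83) and Junb (0.815). Cxcl2, a neutrophil-attracting chemokine, had log2 fold changes of 1.47 with tau fibrils, 2.82 in IkbkbCA and -2.53 in Ikbkb-/-. Those most like Nfkb2 were Rassf4 (0.94), Cyba (0.92), Glrx (0.91), Rnf19b (0.91) and C3 (0.90). C3, the central complement protein, had log2 fold changes of 5.64 with tau fibrils, 4.675 in IkbkbCA and 0.73 in Ikbkb-/-, where Nfkb2 was at -0.34.

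Other genes of the pathway were followed through 5 lists of 68 genes in all. With tau fibrils, where 14.5% of all genes were called higher and 15.4% lower, 29 of the 58 tested were higher and 2 lower, including 14 of 20 target genes, 8 of 13 receptors and adaptors, 4 of 7 feedback enzymes and 3 of 10 kinases and upstream genes. Ccl5, a chemokine, went from 41.6 ± 12.6 to 3183 ± 310 CPM (n = 4 each), a log2 fold change of 6.29, and the receptor gene Tlr2 rose by 1.95. Ikbke, which encodes the IKK-related kinase IKKε, rose by 2.44 and N4bp1 by 1.40, while Nkiras1, which encodes a small GTPase-like protein that binds IκB, fell by 0.97 on the log2 scale.

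In PS19 none of the 66 tested was called, where 0.0707% of all genes passed. The CPM of the 26 target genes summed to 4934, 5063, 8509 and 5354 in PS19 and to 2664, 2141, 3941 and 3073 in NTG. The groups did not overlap in this sum, to which the most abundant genes contribute most. The median log2 fold change of the 25 target genes tested was 0.67, against 0.00 over all genes. Tnf, which encodes a cytokine that activates NF-κB, was at 1.86 (FDR 0.0769) and Ccl5 at 1.92 (FDR 0.0875). These were the lowest FDR values among the 25, and both genes were named after their values were seen. The study, at the same FDR threshold, listed Tnf, Tlr2 and Traf3 among the genes higher in PS19 microglia. None of these was called here, and the reason was not tested.

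In IkbkbCA 19 of the 63 tested were higher and 4 lower, beside 7.31% and 7.16% of all genes. Tlr2 was at 512 ± 63.6 against 105 ± 9.91 CPM (n = 5 each), a log2 fold change of 2.27, and Ikbke at 64.5 ± 15.1 against 18.6 ± 2.84 CPM, a log2 fold change of 1.79. Tnip1, a ubiquitin-binding partner of the feedback enzyme A20, rose by 1.60 and Birc3, an inhibitor of apoptosis, by 1.51. Ccl5 was higher by 4.42 (FDR 0.000109). Nfkbid, a further nuclear IκB gene, fell by 0.77 on the log2 scale.

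In Ikbkb-/- 5 of the 62 tested were higher and 11 lower, beside 7.64% and 6.96% of all genes, so that the number higher was near the share over all genes. Of the 21 target genes tested, 7 were lower and 2 higher. Tnfaip3, which encodes A20, was at 8.59 ± 3.21 against 26.02 ± 9.72 CPM (n = 4 each), a log2 fold change of -1.56. The adaptor gene Myd88 was higher by 0.44 and Pdlim2, which encodes a nuclear protein that targets RELA for degradation, by 0.49. Ccl5 was higher in Ikbkb-/-, at 25.4 ± 4.26 against 2.52 ± 1.39 CPM, a log2 fold change of 3.55 (FDR 2.03e-08). Ccl5 was thus called higher with tau fibrils, in IkbkbCA and in Ikbkb-/-, and its difference between the IkbkbCA and Ikbkb-/- comparisons was 0.92 (FDR 0.591). Nfkbia was called higher in the first 2 of these comparisons and lower in the third, in cultures where genotype and pup sex cannot be told apart.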

How the data were processed

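Raw counts per Ensembl gene were deposited as whole numbers by the authors, 1 file per library. By the study's methods the QuantSeq reads (kit FWD, which keeps strand) were mapped on the BlueBee platform to GRCm38, and the submitters' processing notes name STAR, RSEM, edgeR and limma. The files have the layout of htseq-count, and their closing summary lines, which name no gene, were left out. Counts outside any gene made up 12.4 to 38.3% of the sum of counts in genes, outside genes and ambiguous between genes. The highest share was that of PS19 replicate 2, also the highest adult library for Rela, Relb, Rel, Nfkbia and Nfkbib. Libraries held 1672052 to 8349128 gene counts, with a median of 6134804.5 in PS19 and 2321676 in NTG. The part of depth and of counts outside genes in the results was not tested. Counter settings and strand are not given in the sources used here. Symbols came from GENCODE M21 (47224 of 47643 identifiers).

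Counts were tested in R 4.3.3 with edgeR 4.0.16 (quasi-likelihood test, TMM, filterByExpr with a minimum count of 10 and total of 15), with Benjamini-Hochberg FDR over all genes and a threshold of 0.05. Only the groups compared entered a fit. Differences between 2 comparisons were contrasts in one fit of their 4 groups. Intervals are 95%. All 10 genes passed the filter in all 4 comparisons. CPM were scaled by TMM over the 34 libraries. The common biological coefficient of variation was 16.7% (tau fibrils), 30.5% (PS19), 23.5% (IkbkbCA) and 10.9% (Ikbkb-/-). No 2 libraries of a group were identical (56 pairs). The fits were tested on simulated data.

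The 10 genes, pathway lists and markers were chosen with earlier results of these data known. All 10 were named, Ikbkb and Cx3cr1 served as checks, and of each pathway list the called gene with the lowest FDR per comparison was named, plus the 5 genes most like Nfkbia and Nfkb2. The immediate early and sex-linked lists were chosen after the values were seen. So were the single values of Xist, Ddx3y, Cxcl2, C3, S100a8, S100a9, Slc1a3, Tnf, and of Ccl5 in IkbkbCA and PS19. Alternatives were RLE and total-count scaling, DESeq2 1.42.0, limma-voom 3.58.1, other count filters, age as a covariate, one fit of both Ikbkb experiments and each library left out.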

Additional observations from a re-analysis of the deposited data

Results flagged for a closer look

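Of 80 sets of libraries (10 genes in 8 groups) 2 had a library whose gap to its nearest neighbour passed a set share of the group's range. This share was 0.829 for 4 libraries and 0.71 for 5, where chance flags about 1 in 20 sets. Rel was at 37.0 CPM in Ikbkb+/+ replicate 2 against 48.5 to 50.8 CPM in the other 3. Nfkbia was at 1309 CPM in IkbkbCA replicate 3 against 803 to 929 CPM in the other 4.

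The difference between 2 comparisons passed the test in 14 cases, on the log2 scale. Between IkbkbCA and Ikbkb-/- these were Relb (1.89), Nfkb1 (1.04), Nfkb2 (1.65), Nfkbia (3.004), Nfkbie (2.55), Nfkbiz (1.91) and Bcl3 (0.71). Between tau fibrils and IkbkbCA they were Rel (0.79), Nfkb2 (0.94), Nfkbiz (1.10) and Bcl3 (2.41), and between tau fibrils and PS19 they were Relb (1.39), Nfkb2 (1.93) and Bcl3 (2.36). Pup sex and genotype cannot be told apart in Ikbkb-/- against Ikbkb+/+, and Nfkbia and Nfkbiz ranged higher in Ikbkb+/+ than in IkbkbWT.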

How the results depend on the processing

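The count of calls among the 10 genes stayed within 1.5 times under RLE and total-count scaling, limma-voom and, over the genes that passed it, a stricter filter in each of the 4 comparisons. Total-count scaling moved the median of all genes with tau fibrils to -0.16. For Ikbkb-/- against Ikbkb+/+, one fit of the 18 Ikbkb libraries called 2 of the 10 (875 of all genes) and the covariate Ddx3y, chosen after seeing the data, 2 (305 of all genes), against 4 and 1641. For tau fibrils against PS19, DESeq2 and no filter called 5 in place of 3. Over all genes, PS19 gave 98 calls by DESeq2, 4 by limma-voom, 166 with no filter and 0 with age as a covariate, against 8. The causes were not tested.

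Leaving out each library in turn gave 4 to 54 calls over all genes for PS19, 255 to 431 for the difference between IkbkbCA and Ikbkb-/- (lowest without Ikbkb+/+ replicate 3, against 386) and 3 to 6 of the 10 genes for tau fibrils against PS19 (6 without PS19 replicate 2). Bcl3 in that IkbkbCA and Ikbkb-/- difference was lost in 15 of 18 such fits, with an FDR of up to 0.101. Nfkbie with tau fibrils passed without tau fibrils replicate 1 (FDR 0.0262) or vehicle replicate 1 (FDR 0.0245), and with RLE (0.0484).

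Sign changes occurred in genes that were not called. Nfkbib in PS19 was -0.00996 with age. Rel in IkbkbCA was 0.0237 with RLE, 0.0254 with DESeq2, 0.0153 with no filter and 0.00937 in one fit. Nfkbib in Ikbkb-/- was -0.00378 with total counts and -0.330 with Ddx3y, and Rela for tau fibrils against PS19 was 0.0225 with no filter. With libraries left out, the ranges that crossed 0 were -0.0434 to 0.346 (Relb), -0.599 to 0.152 (Rel), -0.328 to 0.0646 (Nfkb1) and -0.341 to 0.187 (Nfkbie) in PS19, -0.0661 to 0.0674 for Rel in IkbkbCA, -0.0261 to 0.101 for Nfkbib in Ikbkb-/- and -0.0563 to 0.221 for Rela for tau fibrils against PS19.

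No paired analysis was possible because the labels give no replicate numbers that groups share. The stricter filter gave no value for Nfkbie and Bcl3 in fits with the tau fibril libraries, for Bcl3 in PS19, or for Nfkbie in fits with the Ikbkb-/- comparison. Depth limits Nfkbie and Bcl3 most, with as few as 4 counts in a vehicle library.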
